A study of Mus musculus with 3 samples.

Results

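Integrins and laminins are encoded in the mouse by 37 protein-coding genes whose symbols follow the patterns Itga, Itgb or Lam with a chain letter or number. They were chosen by symbol alone, and all 37 were found among the 54532 genes of each deposited table: 18 integrin alpha chains, 8 integrin beta chains and 11 laminin chains. The study took dorsal dura mater, the outer membrane of the brain, from mice bearing 4T1-DM cells, a derivative of the 4T1 mouse mammary carcinoma used as a model of dural metastasis. Cells lacking CD45 and carrying CD31 and podoplanin (PDPN), a phenotype used for lymphatic endothelium, were sequenced from mice given PBS, ZOL, or ZOL together with Ang2, names that the labels do not expand. All 3 groups carried the tumour, were sampled on day 12 after inoculation, and consisted of 1 library made from a pool of 6 mice. There is therefore no replicate, no test and no p-value, and every difference below describes these libraries, not the spread between mice. The labels state no strain, age or sex.

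Integrins are receptors for extracellular matrix and for other cells, and each is a pair of 1 alpha and 1 beta chain that must meet inside the cell to reach the surface. Laminins are trimers of an alpha, a beta and a gamma chain and form the first network of a basement membrane, the sheet of matrix under endothelium and epithelium. Endothelium is known for making laminins with the alpha4 and alpha5 chains, and lymphatic capillaries for having a thin and interrupted basement membrane to which the cells are anchored through integrins.

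PBS was the shallowest library, with 1675532 reads recovered from the deposited values, against 16586760 for ZOL and 9204901 for ZOL+Ang2, and its values are the least precise. Levels are given as CPM (recovered reads as a share of the library's total, with a scaling factor per library), and, where different genes are compared, as CPM per kilobase of exon. A listing of 0 need not mean that a transcript was absent, because Gapdh, a gene of glycolysis that every cell uses, had no PBS read beside 244 ZOL reads and 145 ZOL+Ang2 reads. For that reason no fold is given against a library with 0 reads. Actb and Eef1a1 did have PBS reads, 2829 and 2324. Gapdh was low in the other libraries as well, where Actb had 97765 (ZOL) and 59446 (ZOL+Ang2) reads. Why Gapdh was low was not tested. Of the 5023 genes with at least 20 CPM in both ZOL and ZOL+Ang2, 19.97% had no reads in PBS, and among the 16 integrin and laminin genes of that level 5 had none (Itga5, Itgav, Itgb5, Itgb2 and Lamb2). The markers of the sorted phenotype were uneven. Values given in threes are in the order PBS, ZOL, ZOL+Ang2 throughout. Ptprc, which encodes the CD45 that the sorted cells lack, had 289, 394 and 667 reads. Pecam1, which encodes CD31, had 2, 7454 and 1556 reads, and Pdpn had 35, 1059 and 1496. Among the other lymphatic markers, Prox1 had 2, 0 and 0 reads, Flt4 1, 1113 and 209, Mmrn1 288, 181 and 105, Reln 185, 135 and 69, and Ccl21a 0, 175 and 34, while Lyve1 had none in any library. The 12 endothelial markers summed to 1708, 3557 and 1722 CPM, but in PBS Pecam1, Erg and Robo4 had only 2 reads each. Markers of other cells also moved between libraries. The 16 leukocyte markers summed to 1765, 326 and 2601 CPM, the 8 fibroblast markers to 374, 456 and 11044, the 10 epithelial and carcinoma markers to 544, 5373 and 5189, and the 9 mural cell markers to 2.69, 850.5 and 378. The 8 markers of glia and Schwann cells summed to 315, 23.8 and 60.2 CPM, and the 6 bone cell markers to 0, 328 and 194. The part of such cells in the values below was not tested, and in a pool of this kind fewer cells of a type and less RNA per cell cannot be told apart.

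Together the 37 genes held 1063, 3238 and 2804 CPM. Integrin chains made up 732, 1791 and 1784 CPM of this and laminin chains 331, 1447 and 1020 CPM. The number of genes with at least 1 read was 29, 30 and 25. Ranked per kilobase, the leading genes differed between libraries. PBS was led by Itgb7 at 50.3 CPM per kilobase, followed by Itga3 at 15.9 and Itgax at 15.1. In ZOL the order began with Itga3 at 131 and Itgb1 at 104. In ZOL+Ang2 it began with Itgb1 at 159, Itga3 at 86.2 and Lamb2 at 33.7. The beta1 and alpha3 chains thus headed both ZOL libraries, in opposite order, while the beta7 chain headed PBS.

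**Figure D1:**
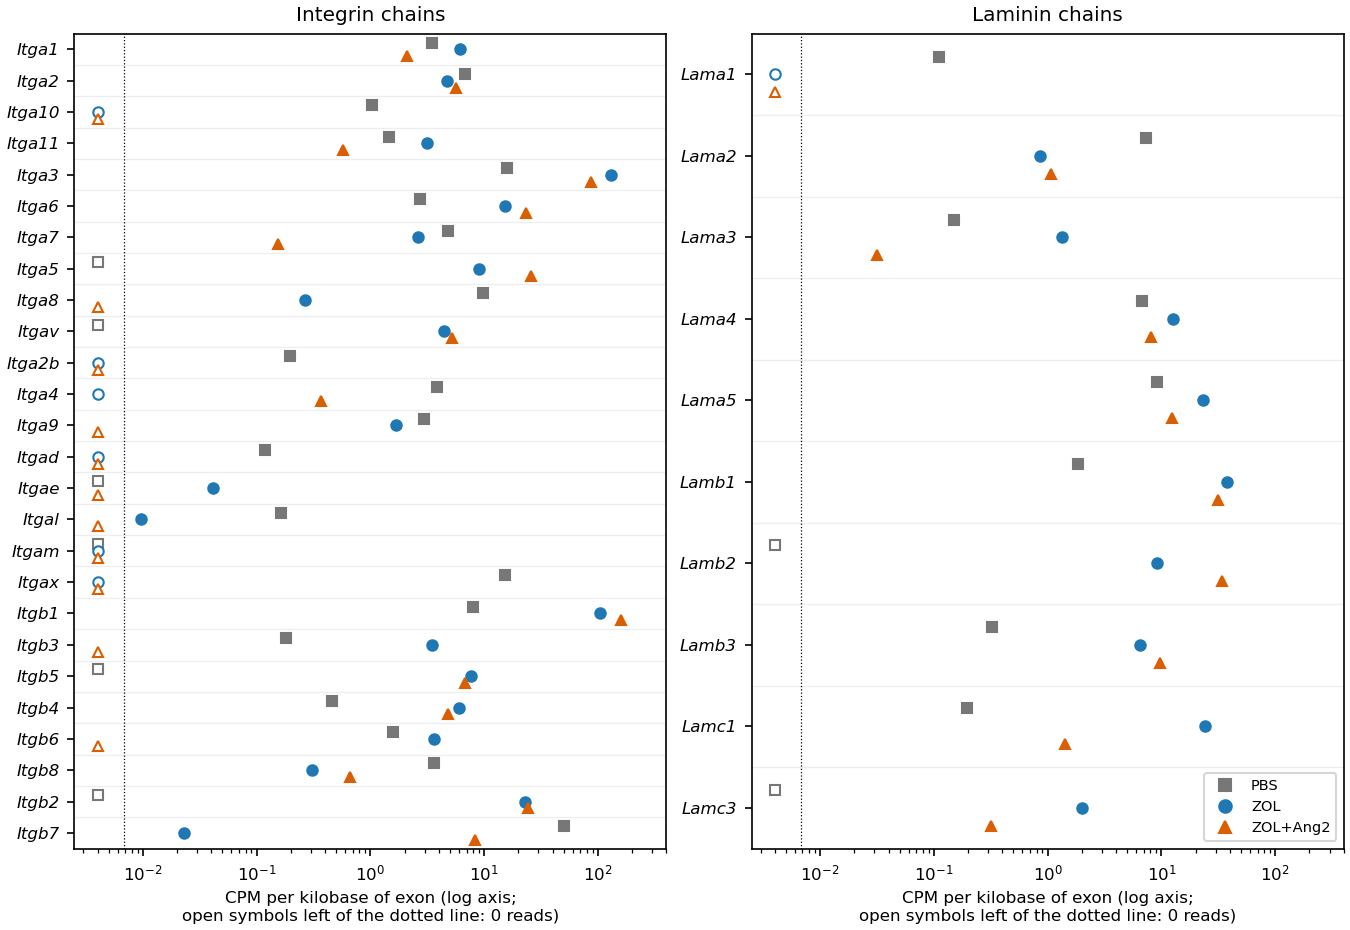
Level of the integrin and laminin genes described here in CPM per kilobase of exon (log axis) in the PBS (square), ZOL (circle) and ZOL+Ang2 (triangle) libraries, 1 library each; open symbols left of the dotted line stand for 0 reads. Itga3 and Itgb1 lie farthest right in both ZOL libraries, Itgb7 is high in PBS with 1 read in ZOL, and Itgam has 0 reads in all 3 libraries.

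The beta1 chain (Itgb1, ENSMUSG00000025809; mm10 chromosome 8, 128685654 to 128733200, plus strand) is the common partner of most alpha chains. It had 61, 6651 and 5679 reads, which is 32.8, 424 and 648 CPM. The ZOL level was 12.9-fold above PBS (95% counting interval 10.03 to 16.89), and ZOL+Ang2 was 1.53-fold above ZOL (1.48 to 1.58). Itga3 (ENSMUSG00000001507; chromosome 11, 95044474 to 95076801, minus strand) encodes a laminin-binding chain that pairs with beta1 and is known for binding laminins with the alpha3 or alpha5 chain. Its levels were 91.0, 749.5 and 492 CPM, 8.24-fold higher in ZOL than in PBS (7.08 to 9.65) and 1.52-fold lower in ZOL+Ang2 than in ZOL (1.47 to 1.58). Folds depend on the scaling. On the scale of the deposited values the log2 difference of ZOL from PBS was 2.27 for Itgb1 and 1.69 for Itga3. The scaling used here gave 3.50 and 2.98. The log2 difference of ZOL+Ang2 from ZOL moved outside the counting intervals as well. It was 0.77 for Itgb1 and -0.43 for Itga3 on the deposited scale, against 0.61 and -0.60 here. The ratio of Itga3 to Itgb1 per kilobase was 1.98 (1.47 to 2.70) for PBS, 1.26 (1.23 to 1.30) for ZOL and 0.543 (0.522 to 0.565) for ZOL+Ang2. The pair with the highest lower chain was Itga3 with Itgb1 in each library, tied in PBS with Itga8 and Itgb1 (Itgb1 at 8.04 CPM per kilobase in both). Within the Itga3 pair, beta1 was the scarcer transcript in PBS and ZOL and alpha3 in ZOL+Ang2.

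The promoter windows of these most abundant partners are shown because both genes headed the family in both ZOL libraries. Each runs from 250 bases before to 50 bases after the RefSeq transcription start (GRCm38.p6), 5′ to 3′ on the gene's strand, and for Itga3 the more upstream of 2 listed starts was taken. They lie at chr11:95076665-95076964 (minus strand) for Itga3 and chr8:128685404-128685703 (plus strand) for Itgb1. Capitals mark matches, on either strand, to the GC box GGGCGG and to the ETS core CGGAAG.
Itga3: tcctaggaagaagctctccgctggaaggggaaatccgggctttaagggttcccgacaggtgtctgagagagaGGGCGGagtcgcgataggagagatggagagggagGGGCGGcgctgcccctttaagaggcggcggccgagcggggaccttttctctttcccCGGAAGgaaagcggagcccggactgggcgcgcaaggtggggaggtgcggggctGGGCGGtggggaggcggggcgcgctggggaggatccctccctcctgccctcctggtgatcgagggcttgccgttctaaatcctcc
Itgb1: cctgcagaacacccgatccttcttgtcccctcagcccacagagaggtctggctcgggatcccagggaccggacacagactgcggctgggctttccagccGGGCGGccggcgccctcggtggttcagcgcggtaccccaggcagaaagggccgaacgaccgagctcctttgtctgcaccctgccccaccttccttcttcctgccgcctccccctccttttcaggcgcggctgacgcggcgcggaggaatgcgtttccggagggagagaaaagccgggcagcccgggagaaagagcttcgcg
Itga3 holds 3 GC boxes and 1 ETS core, and Itgb1 holds 1 GC box. The window of the other Itga3 start, not printed, holds a match to the AP-1 site and to the RUNX core TGTGGT. Of 32851 RefSeq windows of this length, 35.7% hold a GC box and 16.9% an ETS core, and a GC box occurs in 12 of 26 windows found for 23 of the 37 genes. No window of an integrin or laminin gene holds TATAAA, which 13.6% of all windows hold. A match describes letters only.

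The other laminin-binding alpha chains diverged. Itga6, whose product pairs with beta1 and with beta4, stood at 24.8, 136 and 211.2 CPM, 5.51-fold higher in ZOL than in PBS (4.12 to 7.55) and 1.55-fold higher again in ZOL+Ang2 (1.45 to 1.65). Itga3 exceeded Itga6 per kilobase 5.81-fold, 8.69-fold and 3.68-fold. Itga7, the laminin receptor chain known from muscle and mural cells, had 72, 334 and 11 reads. That is 38.8, 21.3 and 1.25 CPM, a level 17.0-fold lower in ZOL+Ang2 than in ZOL (9.36 to 34.3). A drop of that size was common at such levels: of 7380 genes with at least 20 CPM in ZOL, 17.5% were at least 16-fold lower in ZOL+Ang2. Itgb4, the partner of alpha6 in epithelial hemidesmosomes, had 6, 656 and 297 reads, or 3.23, 41.8 and 33.9 CPM. It was 12.9-fold higher in ZOL than in PBS (5.91 to 35.4) and lay within 2-fold between the ZOL libraries. Of 9 compared epithelial and carcinoma markers, 3 were at least 2-fold higher in ZOL+Ang2 than in ZOL and 1 was lower, and their similar sums rest mostly on Krt8 and Krt18. The part of such cells in Itgb4 was not tested.

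Alpha chains that recognise the RGD sequence of fibronectin and vitronectin were listed at 0 in PBS with the exception of Itga8 and 2 reads of Itga2b. Itga5 (ENSMUSG00000000555; chromosome 15, 103344286 to 103366763, minus strand), the main fibronectin receptor chain, had 0, 692 and 1104 reads. At 44.1 and 126 CPM it was 2.86-fold higher in ZOL+Ang2 than in ZOL (2.60 to 3.15). Its ligand fibronectin (Fn1) stood at 34.4, 1155 and 1891 CPM. Itgav, which joins several beta chains to bind vitronectin and to activate latent TGF-beta, had 0, 750 and 494 reads and lay within 2-fold between the ZOL libraries at 47.8 and 56.3 CPM. Its beta partners were less even. Itgb5 had no PBS reads and stood at 27.2 CPM for ZOL and 24.1 for ZOL+Ang2. Itgb3, the beta chain of angiogenic endothelium and platelets, had 2, 319 and 0 reads, and Itgb6, an epithelial beta chain, had 21, 406 and 0. Itgb8 ran the other way with 74, 53 and 64 reads, which at these depths is 39.8, 3.38 and 7.30 CPM. The ZOL+Ang2 level was 2.16-fold above ZOL without a prior (1.48 to 3.17), but at 0.55 on the log2 scale with the prior of 5 CPM it is not among the genes counted as 2-fold higher. Of the alpha-v pairs, only that with beta1 or beta5 had both chains above 1 CPM per kilobase in ZOL+Ang2, while in ZOL those with beta3 and beta6 did too. Itga8, a chain of smooth muscle and mesenchyme, had 134, 31 and 0 reads, which is 72.1 CPM for PBS and 1.98 for ZOL. It was 36.5-fold lower in ZOL than in PBS (24.6 to 55.9). Of the 9 mural cell markers, 8 had no reads in PBS, where Itga8 was highest.

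Among collagen-binding chains, Itga1 and Itga2 were present in all libraries. Itga1, a chain of mural cells and microvascular endothelium, had 121, 1804 and 345 reads, or 65.1, 115 and 39.3 CPM. It was 2.92-fold lower in ZOL+Ang2 than in ZOL (2.60 to 3.29). Itga2 stood at 47.9, 33.6 and 40.6 CPM and lay within 2-fold in each comparison. The fibroblast collagen receptor Itga11 had 14, 253 and 26 reads and was 5.44-fold lower in ZOL+Ang2 than in ZOL (3.62 to 8.48), while the collagen gene Col1a1 had 53.5 CPM for ZOL and 4280 for ZOL+Ang2. Itga10, a chain of cartilage, had 10 reads in PBS and none elsewhere. Only Itga1 and Itga2 of these 4 chains reached a mean of 10 CPM. Of these 2, none was at least 2-fold higher in ZOL+Ang2 than in ZOL and 1 was lower, where 16.2% and 24.8% of all compared genes were. So few genes cannot be told apart from those shares.

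Itga9, a chain known for its part in lymphatic valves, had 42, 204 and 0 reads, or 22.6 CPM for PBS and 13.0 for ZOL. Itga4 (ENSMUSG00000027009; chromosome 2, 79255426 to 79333123, plus strand) pairs with beta1 or beta7 to bind VCAM1, fibronectin and MAdCAM-1, and is best known from lymphocytes. It had 100, 0 and 45 reads, or 53.8 CPM for PBS and 5.13 for ZOL+Ang2. Itgb7 (ENSMUSG00000001281; chromosome 15, 102215995 to 102231944, minus strand), a beta chain of lymphocytes that home to mucosa, had 259, 1 and 203 reads, or 139, 0.0637 and 23.2 CPM. The ratio of ZOL+Ang2 to ZOL was 363 (64.5 to 14423), from 1 ZOL read. Both partners thus had at most 1 read in ZOL, the deepest library, and at least 45 in each of the others. Their ligand gene Madcam1 had 0 reads in each library, and Vcam1 stood at 157, 219 and 169 CPM. Among lymphocyte markers, Cd3e had 61, 7 and 0 reads and Cd79a 432, 0 and 0. The leukocyte marker Ptprc stood at 156, 25.1 and 76.1 CPM, with its lowest value in the same library as Itga4 and Itgb7. Which cells the Itga4 and Itgb7 reads came from was not tested.

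The windows of this second pair are shown for comparison with the first, at chr2:79255176-79255475 (plus strand) for Itga4 and chr15:102231886-102232185 (minus strand) for Itgb7. Capitals mark the GC box and the RUNX core TGTGGT, on either strand.
Itga4: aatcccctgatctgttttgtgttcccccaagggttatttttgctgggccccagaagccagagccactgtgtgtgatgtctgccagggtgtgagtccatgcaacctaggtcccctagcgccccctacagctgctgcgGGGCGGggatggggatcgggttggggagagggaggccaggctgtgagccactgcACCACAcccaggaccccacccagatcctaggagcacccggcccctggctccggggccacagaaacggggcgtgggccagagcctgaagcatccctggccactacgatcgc
Itgb7: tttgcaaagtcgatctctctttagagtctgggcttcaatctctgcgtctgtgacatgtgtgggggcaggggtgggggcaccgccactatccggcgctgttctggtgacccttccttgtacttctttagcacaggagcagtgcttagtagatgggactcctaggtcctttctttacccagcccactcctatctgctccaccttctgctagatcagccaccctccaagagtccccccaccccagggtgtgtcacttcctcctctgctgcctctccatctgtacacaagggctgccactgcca
Itga4 holds 1 GC box and 1 RUNX core (on the opposite strand). Itgb7 holds none of the 5 motifs searched, the fifth being the AP-1 site TGANTCA. Of all windows 16.8% hold the RUNX core and 7.81% the AP-1 site. The GC content was 64.3% for Itga4 and 56.3% for Itgb7, against 66.7% for Itga3, 67.3% for Itgb1 and a median of 52.7% over all windows.

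Chains restricted to leukocytes did not appear as pairs. Itgb2 (ENSMUSG00000000290; chromosome 10, 77530252 to 77565708, plus strand), the beta chain of all leukocyte-specific beta2 integrins, had 0, 1103 and 645 reads. At 70.3 and 73.6 CPM it differed 1.05-fold between the ZOL libraries (0.948 to 1.16), an interval that includes 1. Its log2 difference of 0.06 was 0.22 on the scale of the deposited values, outside that interval. Its alpha partners had almost no reads beside it. Itgal of lymphocytes had 2, 1 and 0 reads, Itgad 1, 0 and 0, and Itgam of myeloid cells 0 in each library. Itgax, a chain of dendritic cells and macrophages, had 135 reads in PBS (72.7 CPM), where Itgb2 had none, and 0 in both ZOL libraries. Itgae, the partner of beta7 in lymphocytes of epithelia, had 0, 3 and 0 reads. Of the 4 beta2 pairs none had more than 3 reads of both chains in any library. Most other leukocyte genes did not stay level as Itgb2 did. Of 13 compared leukocyte markers 10 were at least 2-fold higher in ZOL+Ang2 than in ZOL and none was lower, where 16.2% and 24.8% of all genes were. Lyz2 stood at 68.8 and 929 CPM and C1qc at 2.48 and 271. Cd14 was among the 3 within 2-fold, at 175 and 159 CPM. Fermt3, the kindlin of blood cells that activates beta2 integrins, stood at 4.84, 13.4 and 60.9 CPM, 4.55-fold higher in ZOL+Ang2 than in ZOL (3.87 to 5.37).

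The annotation limits what Itgam can show. Of its exon bases 68.7% are also exon of Gm49368, a gene model on the same strand that had 22, 0 and 0 reads. Over all protein-coding genes, 67.1% of the 632 that share 50% or more of their exon bases with another gene had no reads in any library, against 22.5% of the 19230 that share under 10%. Itga10 shares 33.5% and Itgad 19.7%, and the other 34 genes share at most 8.04%. For the remaining leukocyte chains, Itgal, Itgae and Itgax, no exon base is shared. The platelet chain Itga2b had 2, 0 and 0 reads, and 6, 7 and 9 of 10 platelet markers had none in PBS, ZOL and ZOL+Ang2, so the 319 reads of Itgb3 in ZOL stood beside 0 reads of its platelet partner.

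Of the 9 genes of the family above 100 CPM in ZOL, a laminin chain differed most between the ZOL libraries. Lamc1 (ENSMUSG00000026478; chromosome 1, 153218922 to 153332786, minus strand) encodes gamma1, the chain shared by nearly all laminins of vessels, and had 3, 3122 and 104 reads. At 1.61, 199 and 11.9 CPM it was 16.8-fold lower in ZOL+Ang2 than in ZOL (13.8 to 20.6), and 123-fold higher in ZOL than in PBS (42.1 to 598, from 3 PBS reads). Of 1250 genes with at least 150 CPM in ZOL, 2.88% were at least 16-fold lower in ZOL+Ang2. The beta chain that assembles with it, Lamb1, stood at 18.3, 370.5 and 309 CPM and was 1.198-fold lower in ZOL+Ang2 (1.145 to 1.255). Its log2 difference from ZOL of -0.26 was -0.09 on the scale of the deposited values, outside that interval. Lamb1 exceeded Lamc1 per kilobase 1.55-fold in ZOL (1.49 to 1.62) and 21.8-fold in ZOL+Ang2 (17.9 to 26.7). The gap between these partners was therefore wider in ZOL+Ang2 by more than the counting error.

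Lamb2 (ENSMUSG00000052911; chromosome 9, 108479736 to 108490530, plus strand), the beta chain of mature vessel and synaptic basement membrane, moved the opposite way to Lamc1. It had 0, 868 and 1799 reads, and at 55.3 and 205 CPM it was 3.71-fold higher in ZOL+Ang2 than in ZOL (3.42 to 4.03). The ratio of Lamb2 to Lamb1 per kilobase was 0.243 in ZOL (0.226 to 0.261) and 1.08 in ZOL+Ang2 (1.02 to 1.15). The beta1 and beta2 laminin chains were thus at nearly equal level in ZOL+Ang2, and beta1 was in excess in ZOL. Among alpha chains, Lama4 of endothelium had 150, 2398 and 865 reads, or 80.7, 153 and 98.6 CPM. Lama5, which in vessels marks mature basement membrane, had 192, 4185 and 1227 reads, or 103, 267 and 140 CPM. Both were lower in ZOL+Ang2 than in ZOL by less than 2-fold, at 1.55-fold (1.43 to 1.68) for Lama4 and 1.91-fold (1.79 to 2.03) for Lama5. Lama5 was 2.58-fold higher in ZOL than in PBS (2.23 to 3.00), but its log2 difference of 1.33 was 0.04 on the scale of the deposited values. The ratio of Lama4 to Lama5 per kilobase was 0.737, 0.541 and 0.665, so alpha5 was the more abundant in each. Lama2, a chain of muscle, nerve and the meninges, was the only laminin chain highest in PBS among those compared, at 120 CPM against 14.1 and 17.5. Lama1, known from embryonic and pial basement membranes, had 2 reads in PBS and none in the others.

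**Figure D2:**
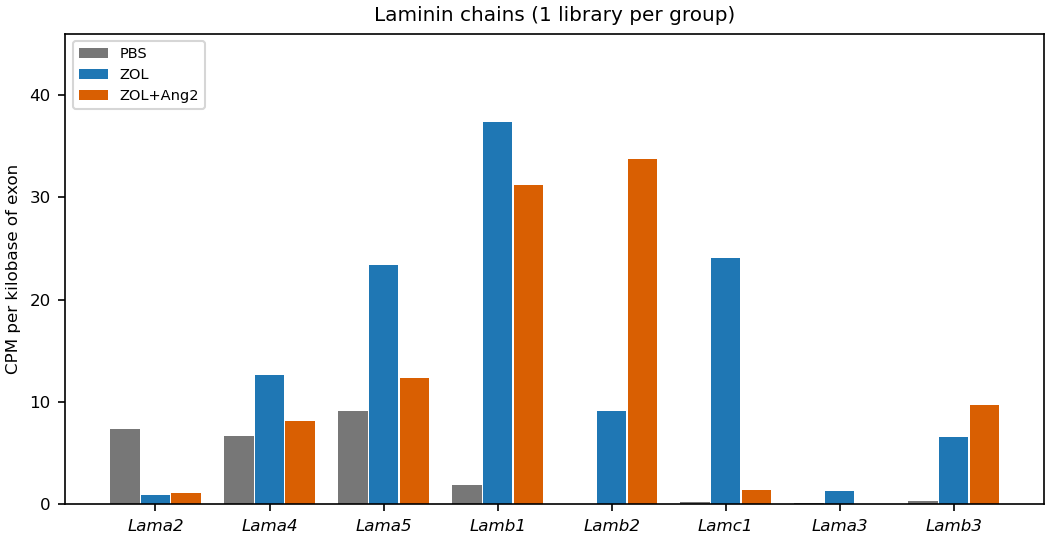
Selected laminin chains in CPM per kilobase of exon (bars, linear axis from 0) in the PBS, ZOL and ZOL+Ang2 libraries, 1 library each. Lamc1 falls from 24.0 in ZOL to 1.43 in ZOL+Ang2 while Lamb1 stays at 37.4 and 31.2 and Lamb2 reaches 33.7.

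Read by trimer, the scarcest chain changed with the library. For the endothelial trimer of alpha4, beta1 and gamma1 the lowest of the 3 chains was gamma1 in PBS (0.195 CPM per kilobase), alpha4 in ZOL (12.7) and gamma1 in ZOL+Ang2 (1.43). The trimer of alpha5, beta1 and gamma1 gave gamma1 in PBS, alpha5 in ZOL (23.4) and gamma1 in ZOL+Ang2 at the same values of gamma1. In ZOL the chains of the latter lay close together at 23.4, 37.4 and 24.0, whereas in ZOL+Ang2 they stood at 12.3, 31.2 and 1.43. Both trimers in which beta2 replaces beta1 had Lamb2 as the scarcest chain in ZOL (9.09) and again Lamc1 in ZOL+Ang2. For the trimers with alpha2 and gamma1, that alpha chain was lowest in both ZOL libraries, at 0.862 and 1.07. These are transcript levels, and no protein was measured.

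The alpha3 and beta3 chains are known from the laminin that anchors epithelium. Lamb3 had 4, 677 and 564 reads, or 2.15, 43.1 and 64.3 CPM, and lay within 2-fold between the ZOL libraries. Lama3 had 3, 225 and 3 reads, and was 41.9-fold lower in ZOL+Ang2 than in ZOL (14.2 to 205, from 3 reads). Lama3 was thus almost without reads in the library where Lamb3 was highest. Lamc3 had 0, 192 and 17 reads. The epithelial markers beside these chains stood at 165, 2451 and 2057 CPM for Krt8, 60.8, 203 and 370 for Epcam and 1.61, 17.9 and 165 for the basal keratin Krt14. Krt19 stood at 0, 37.3 and 1.03 CPM, and Krt5 had no reads.

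Over the whole family, 26 of the 37 genes reached a mean of 10 CPM and were compared with the 10942 genes that did. Log2 differences and counts of genes at least 2-fold apart use 5 CPM added to each level. Several passed only through the library where they were high (Itgax, Itga8 and Itga4 among them), so the counts that follow describe and support nothing. In ZOL+Ang2 against ZOL 4 of 26 were at least 2-fold higher (Itga5, Itga4, Itgb7 and Lamb2), where 16.2% of all compared genes were, and 5 were lower (Itga1, Itga7, Itga9, Itgb6 and Lamc1), where 24.8% of all genes were. The median log2 difference was -0.07 against -0.02 for all genes. Of these calls, that of Itga4 was borderline: its log2 difference of 1.02 was 0.94 with median-of-ratios scaling, 0.98 with totals alone, 0.82 on the deposited scale and 0.997 with PBS left out of scaling. In ZOL against PBS 14 of 26 were higher and 6 lower, against 49.2% and 29.4% of all genes, with a median of 1.79 against 0.94. Both family medians stayed at these values when genes with 0 reads in 1 library were set to the level of 3 reads there. This could not have come out otherwise, because the step only moved such genes farther from the median on the side where they lay. It therefore shows nothing about the effect of those 0 values. The comparison of ZOL against PBS depends on scaling. With median-of-ratios factors in place of TMM (trimmed mean of M values) the median of all genes was -0.17 and 47.3% of the genes past 2-fold were higher, where TMM gave 62.6%; on the scale of the deposited values these were -0.83 and 39.9%. For the family the counts then became 13 higher and 9 lower with both scalings, against 37.4% and 41.7% of all genes with median-of-ratios factors and 32.2% and 48.4% on the deposited scale. In ZOL+Ang2 against PBS 13 were higher and 9 lower, against 44.2% and 33.1%. Both ZOL comparisons use the same ZOL library.

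**Figure D3:**
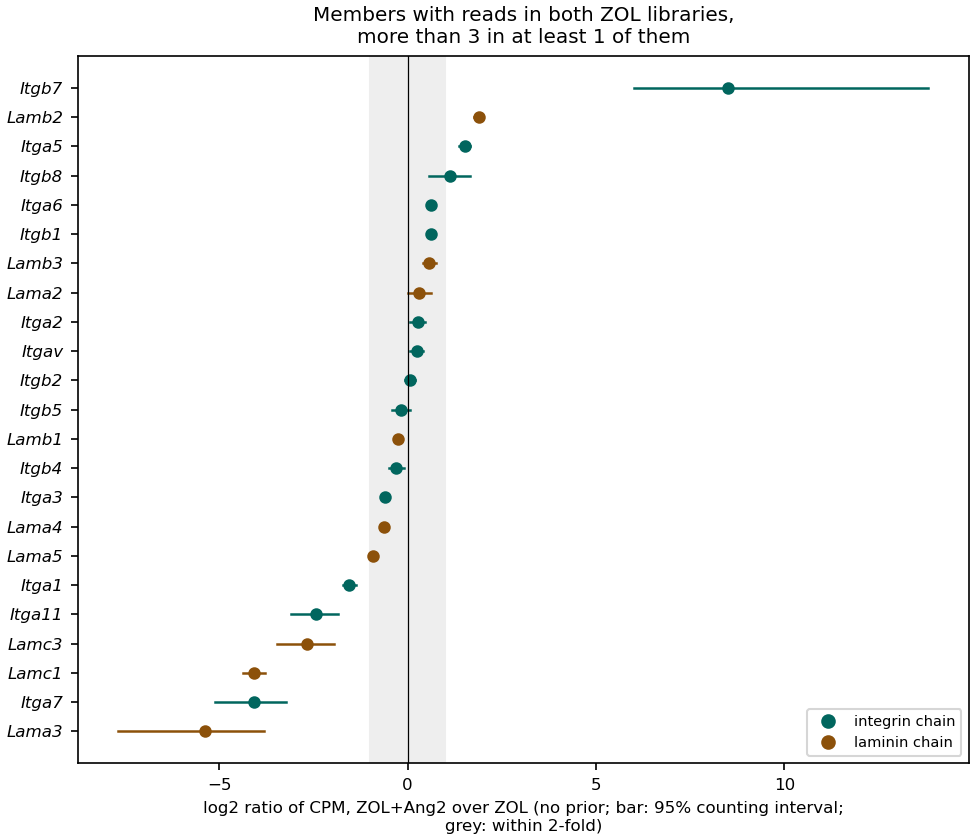
log2 ratio of CPM in ZOL+Ang2 over ZOL (no prior), with 95% counting intervals as bars, for genes with reads in both libraries and more than 3 in at least 1; the grey band is within 2-fold. Lamb2, Itga5, Itgb7 and Itgb8 lie to the right of the band. Itga1, Itga7, Itga11, Lamc1, Lamc3 and Lama3 (farthest, from 3 ZOL+Ang2 reads) lie to the left, and most abundant chains lie inside it.

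The proteins that link integrins to actin were split between the ZOL libraries. Of 24 compared genes of the integrin activator and focal adhesion list, 5 were at least 2-fold higher in ZOL+Ang2 and 6 lower, where 16.2% and 24.8% of all genes were, with a median log2 difference of -0.20. Talin 1 (Tln1), which binds the beta chain tail and switches integrins on, stood at 238, 379 and 354 CPM. The highest were the adaptor Bcar1, at 18.1 and 96.1 CPM, Fermt3, and talin 2 (Tln2), at 2.87 and 17.5. The lowest were Rsu1, Tns2 and Itgb1bp1. Rsu1, a partner of the PINCH protein at adhesions, went from 214.5 to 2.28 CPM, 94.1-fold lower (60.8 to 154). The tensin Tns2 went from 116 to 9.01 CPM and Itgb1bp1, which binds the beta1 tail and restrains it, from 40.9 to 7.98. Lims1 and Parva, which form a complex with integrin-linked kinase (Ilk), were within 2-fold at 95.6 and 132 CPM and at 79.7 and 91.6. Ilk itself had 0, 0 and 7 reads, with 89.7% of its exon bases shared with other genes. In ZOL against PBS the list had 13 of 24 higher and 4 lower, where 49.2% and 29.4% of all genes were.

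Basement membrane partners of laminins were split. Of 13 compared genes 4 were at least 2-fold higher in ZOL+Ang2 than in ZOL and 5 lower (median log2 difference 0.26), where 16.2% and 24.8% of all genes were. Nid1, which bridges the laminin gamma1 chain to collagen IV, stood at 2.15, 76.8 and 195 CPM, 2.54-fold higher in ZOL+Ang2 (2.35 to 2.73), opposite to Lamc1. The collagen IV chains of every vessel, Col4a1 and Col4a2, lay within 2-fold at 347 and 247 CPM and at 321 and 385. The highest were Fbln1 (8.78-fold, 7.85 to 9.85), Fbln2 (3.71-fold, 3.55 to 3.88) and Sparc (3.46-fold, 3.41 to 3.52), secreted proteins that fibroblasts also make, and they stood beside fibroblast marker sums of 456 and 11044 CPM. Lower were Col4a5, at 32.6 and 3.99 CPM, Col18a1, the source of endostatin, at 311.5 and 90.8, and Col4a4. Perlecan (Hspg2) was 2.42-fold lower (2.198 to 2.672).

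Among laminin receptors other than integrins, 2 of 5 compared genes were higher and 1 lower in ZOL+Ang2 than in ZOL. The shares over all genes were 16.2% higher and 24.8% lower, also for the lists of ligands that follow. The syndecans Sdc1 and Sdc2 had no reads in PBS and were 3.81-fold (3.61 to 4.04) and 4.01-fold (3.71 to 4.34) higher in ZOL+Ang2. Bcam, a receptor of laminins with alpha5, was 2.98-fold lower (2.67 to 3.33), the same direction as Lama5 with its smaller difference. Dystroglycan (Dag1) stayed within 2-fold at 86.8 and 105 CPM. Of the matrix and soluble ligands of integrins, 9 of 17 were higher and 3 lower, with a median of 1.29. They were led by tenascin C (Tnc), with no ZOL read and 5603 ZOL+Ang2 reads, Col1a1 (80.0-fold, 74.7 to 85.8) and Col1a2. Col1a1, Col1a2 and Col3a1 of this list are also fibroblast markers, of which 7 of 7 compared genes were higher. The part of fibroblasts in the list's values was not tested. The lowest were vitronectin (Vtn), with 2244 reads in ZOL and 0 in ZOL+Ang2, Emilin1 and Vwf, an endothelial product, at 1059 and 272 CPM. None of 7 compared cell surface ligands was higher and 2 were lower, Icam2 (24.1-fold, 17.5 to 34.1) and Jam2 (5.54-fold, 4.74 to 6.51), both endothelial genes, in a library where 9 of 12 endothelial markers were at least 2-fold lower and none higher. For comparison, the medians of the integrin alpha and beta chains were 0.00 and 0.06.

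**Figure D4:**
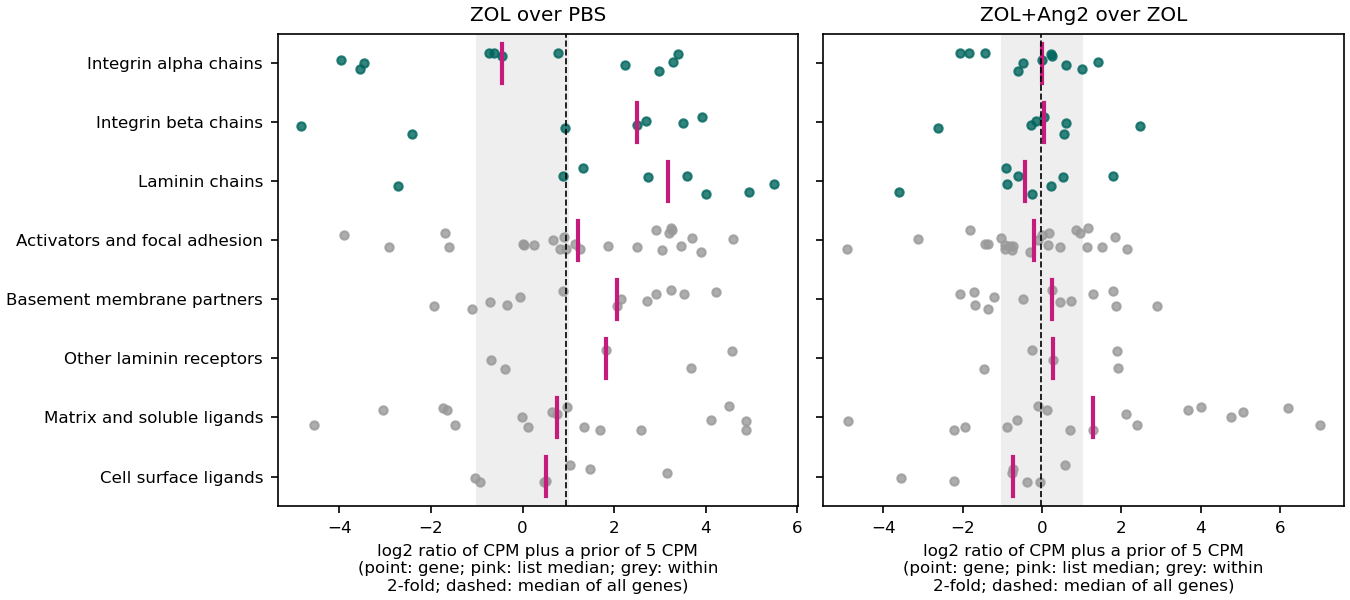
log2 ratio (5 CPM added to each level) of every compared gene (points) of the integrin and laminin chains (green) and of 5 related lists (grey), in ZOL over PBS (left) and ZOL+Ang2 over ZOL (right); pink bars are list medians, the dashed line is the median of all compared genes and the grey band is within 2-fold. On the right, the matrix and soluble ligands have a median of 1.29 and the laminin chains -0.43.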

How the data were processed

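Full-length cDNA amplified from the RNA of 3 pools of dural cells was sequenced, per the labels' protocols. The deposited files hold RPKM values computed by the authors, and the submitters' processing notes name fastp, HISAT2 2.2.1, featureCounts 2.0.6 and mm10 without order or role. The sources used here state neither the annotation release nor the library total, strand, or handling of mate pairs and multi-mapped reads.

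The design named whole reads recovered from RPKM: each value times the exon length in GENCODE M21 (merged exons) was divided by the value of 1 read in that library. Within 0.01 of a whole number lay 96.9% (PBS), 96.4% (ZOL) and 96.2% (ZOL+Ang2) of values above 0. Recovered reads were 1.50, 0.701 and 0.785 times the library totals implied by the steps, so they may differ from the authors' counts. Of the 54532 genes, 37 (none of them an integrin or laminin gene) had no exon length and were left out.

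Reads were scaled with TMM factors (1.11, 0.946 and 0.953; trims of 30% and 5%) in Python 3.11.15 with numpy 2.4.6, scipy 1.17.1 and pandas 2.3.3. Only genes averaging 10 CPM or more across all 3 libraries entered the comparisons. Log2 differences carry a prior of 5 CPM. Folds are CPM ratios without a prior, with exact 95% binomial intervals conditional on both libraries' reads. No molecular identifiers are named in the labels, so intervals cover counting error only. They treat each recovered read as independent, which was not tested. Among genes with 1 to 40 recovered reads, 61.0% (PBS), 53.2% (ZOL) and 51.0% (ZOL+Ang2) had an even count. If mates of a pair were counted singly, the intervals would be too narrow. At least 2-fold apart is a description, not a test. A count of 3 reads equals 1.61, 0.191 and 0.342 CPM. Recovery and scaling were tested on simulated data.

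The rule for named genes took all members by role, up to 3 highest and 3 lowest genes of each related list in ZOL+Ang2 against ZOL, and of marker lists the 2 most abundant and those at 0 reads. Tln1, Lims1, Parva, Ilk, Nid1, Hspg2, Col4a1, Col4a2, Dag1, Fn1, Vcam1, Ptprc, Cd3e, C1qc, Epcam, Krt14, Krt19, Pecam1, Erg, Robo4, Flt4, Ccl21a, Reln, Gm49368 and Gapdh fell outside it and were chosen after their values were seen. Results for 1 gene are not reported here. Members and lists were chosen with earlier results of these data known. The promoters and motifs were also chosen with the values in view. A bound against a floor of 3 reads, named in the design, is not printed, since Gapdh had no PBS reads. Alternatives were another scaling, filter, prior, depth or fold, and leaving PBS out of the scaling.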

Additional observations from a re-analysis of the deposited data

How the results depend on the processing

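The counts and medians of the integrin and laminin genes were recomputed with 4 other scalings, 2 other filters, another prior, thinning to 1675532 reads and a 4-fold limit. With the other scalings, the other prior and thinning, no gene past 2-fold changed direction in any of the 3 comparisons. A filter or a fold limit cannot change a direction. Single log2 differences often moved by at least 0.1 and outside their counting interval, also between the ZOL libraries. Over the 3 comparisons 65 moved with median-of-ratios factors and 65 on the deposited scale, while 13 stayed with each. The log2 differences carry the prior of 5 CPM and the intervals do not. A gene of low level can thus lie outside its interval under the reported scaling as well, as Itga7 did in ZOL+Ang2 against ZOL. For such genes only the shift of at least 0.1 bears on scaling, and the counts do not separate them. In ZOL+Ang2 against ZOL the lower genes numbered 9 with a filter of 1 CPM, 2 with 50 CPM and 3 at 4-fold (5 as reported). Of all compared genes 23.1%, 18.9% and 13.5% were lower under these settings. The higher ones numbered 1 at 4-fold (4 as reported), where 6.05% of all genes were higher. These filters left 31 (1 CPM) and 13 (50 CPM) of the family. The median relative to all genes was -0.26 with 1 CPM and -0.19 with 50 CPM (-0.06 as reported). With PBS left out of scaling, chosen after the data were seen, 8 of 9 genes past 2-fold stayed past it, Itga4 being the exception. That count includes genes that no longer reach 10 CPM when PBS is left out of the filter too, which 21 of the family did reach. With a filter of 50 CPM 13 genes of the family were compared. Of them 9 were higher and 2 lower in ZOL against PBS (14 and 6 as reported), where 57.3% and 15.5% of all genes were. In ZOL+Ang2 against PBS 8 were higher and 2 lower (13 and 9 as reported), where 56.3% and 17.9% of all genes were. The median relative to all genes in ZOL against PBS was 0.85 as reported, 1.14 with median-of-ratios factors, 1.38 on the deposited RPKM scale, 0.54 with TMM computed without mitochondrial, satellite-type, haemoglobin, ribosomal RNA and chemoreceptor genes, 1.41 and 1.53 with filters of 1 and 50 CPM, and 1.05 after thinning. In ZOL+Ang2 against PBS it was 0.40 as reported and 0.66, 1.00, 0.15, 0.27, 0.95 and 0.63 under the same alternatives in that order, and 0.74 with a prior of 1 CPM. The cause of these shifts was not tested. Itga4 also fell under 2-fold in ZOL+Ang2 against ZOL with median-of-ratios factors, total reads and the deposited scale. Lama5 fell under 2-fold in ZOL against PBS with median-of-ratios factors, on the deposited scale and after thinning, and Lamc1 in ZOL+Ang2 against PBS on the deposited scale. Depth limits PBS most, where 1 read is 0.538 CPM. No paired analysis was possible because each group is 1 library.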

Other observations

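Genes near the family but outside it had their reads in PBS. Itgb2l, a relative of Itgb2, had 112, 0 and 0 reads in PBS, ZOL and ZOL+Ang2, and Itgbl1, a secreted protein with integrin-like repeats, had 48, 2 and 0. They were looked up after the values of Itgb2 were seen.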
